A study of Mus musculus with 2 samples.

Results

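Copying of the genome in S phase was followed through 39 genes, from those that load and start the replicative helicase to the polymerases, the sliding clamp, the enzymes that make deoxynucleotides, the proteins that repack new DNA and the regulators that open S phase. The genes were listed by name, and a gene was kept if a probe of it was well above background, by the scanner software's own criterion, on at least 1 of the 2 arrays. All 39 passed, with 46 of their 46 probes, among 16278 named genes that met the same criterion, and all 39 were also well above background on both arrays, as were 15256 genes in all. The 39 genes were somewhat lower in ovaries cultured with TKR agonists than in ovaries cultured with TKR antagonists: the median log2 ratio was -0.34, and it lay 0.25 below the median of all genes on the log2 scale, which was -0.10. The difference was small and shared by most of the genes. Of the 39 log2 ratios, 38 were below 0, against 62.3% of all genes. With spike-in scaling, which gave the lowest count of the scalings tried, 28 were below 0, against 24.0% of all genes. Cyclin E1 (Ccne1), the ribonucleotide reductase subunit Rrm2, the histone chaperone subunit Chaf1b, the helicase subunit Mcm5 and the sliding clamp Pcna were the 5 genes at least 1.5-fold lower with the agonists. Of all genes, 4.28% were that low, and the count of 5 depended on the scaling.

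Before a cell enters S phase, the origin recognition complex, Cdc6 and Cdt1 load rings of the MCM proteins onto DNA, and Cdc45 and the GINS complex turn them into active helicases. Primase and DNA polymerase alpha then start each new strand, polymerases delta and epsilon extend it on the ring-shaped clamp PCNA, and Fen1 and Lig1 join the pieces of the lagging strand. In the immature ovary the granulosa cells of growing follicles are the main dividing cells, whereas oocytes are held in meiotic prophase and do not copy their DNA.

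The study asked how tachykinins, a family of neuropeptides that includes substance P, act on follicles of the immature mouse ovary through the receptors TACR1, TACR2 and TACR3. Ovaries of 2-week-old mice were cut lengthwise into symmetrical pieces and cultured for 3 days at 1 μM of each ligand. One group received the TACR1 agonist [Sar9, Met(O2)11]-SP, the TACR2 agonist GR-64349 and, for TACR3, the succinyl form of [Asp, N-Me-phe8]sp.6-11, and the other the antagonists L-703,606, GR-94800 and SB218795. RNA of each group was labelled with the dye Cy3 and hybridised to 1 single-colour Agilent oligonucleotide array, so there were 2 arrays and no replicate. The sources used here give no strain, genotype or number of ovaries for these RNAs. By the study's account the antagonist group received all of its antagonists, and halving served to limit error from differences between ovaries. How the agonists were combined is less plainly stated. No untreated ovary was analysed here, so a lower value with the agonists cannot be told apart from a higher value with the antagonists.

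With 1 array per group no test was possible, no p-value is given and the spread between ovaries is unknown. Each of the 46 probes had 1 spot per array. The software's error of a log2 ratio, which covers the spot and not the ovary, was 0.20 to 0.30 for the probes used. Probes printed in 10 spots repeated more closely, with a median SD between spots of 0.07 on the log2 ratio over 284 probes. The agonist array was brighter, with a 75th percentile of 672 signal units against 569, and every log2 ratio given here is agonists minus antagonists, taken once each array was set to its own 75th percentile. Signals in signal units are given before this scaling, so a gene with equal signals on both arrays has a log2 ratio below 0. In whole tissue, fewer cells of a type and less RNA per cell cannot be told apart. Markers of granulosa cells and of oocytes were well above background on both arrays for 10 of 10 genes each.

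A log2 ratio 1.5-fold or more below 0 was found in 653 of the 15256 genes, or 4.28%, and one 1.5-fold or more above 0 in 1413, or 9.26%. Of the 39 replication genes, 5 were at least 1.5-fold lower (12.8%) and 0 at least 1.5-fold higher. The count of 5 was 1 without scaling and on the spike-in scale, 2 with the percentile over detected probes, with quantile normalization, with loess and in the authors' values, 3 after normexp correction of the background and 6 when arrays were scaled on their medians. The split over all genes depended on the scaling, with 2360 higher and 197 lower without scaling, 2545 and 171 on a spike-in scale, 1683 and 414 with the percentile taken over probes detected on both arrays, and 1731 and 384 in the authors' own summary values. At a 2-fold threshold Ccne1 alone of the 39 was lower, against 0.577% of all genes. A log2 ratio below 0 was found in 62.3% of all genes and in 38 of the replication genes, the exception being Tyms. Between -0.5 and -0.2 lay 27 of the 39, a band for which the share of all genes is not given here. The SD between the 39 genes was 0.22, against 0.48 over all genes. The lowest 25% of all genes held 28 of the 39 (71.8%), and 35 were below the median of all genes. The distance from that median was larger than the software's error for 26 genes, each of them lower. The share of all genes so far from it is not given here. All genes had a 25th percentile of -0.27 and a 75th percentile of 0.15. Brightness moves with the log2 ratio on these arrays: among the 8428 genes whose mean level reached the 75th percentile the median was -0.15, 71.4% were below 0, 3.07% were at least 1.5-fold lower and 5.3% at least 1.5-fold higher. The 31 replication genes as bright as that had a median of -0.37 and an SD of 0.21, against an SD of 0.38 over all genes as bright.

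**Figure D1:**
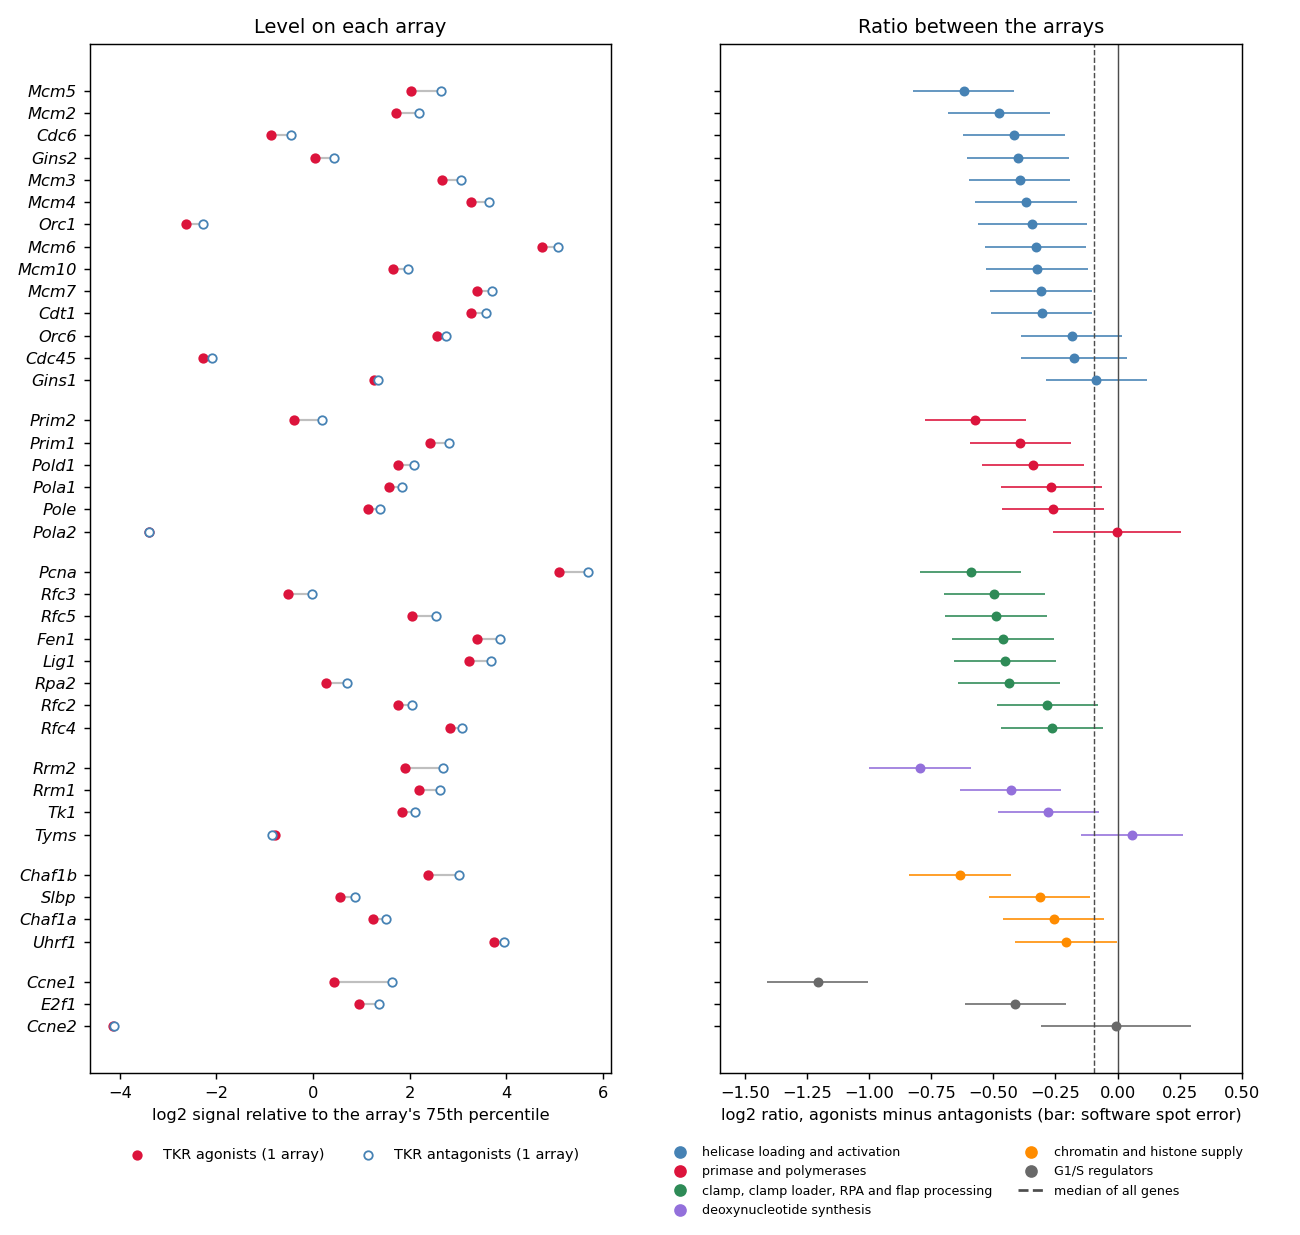
Level of each of the 39 DNA replication genes on the agonist and the antagonist array (left, log2 signal relative to the array's 75th percentile, 1 array per group) and the log2 ratio between the arrays (right), ordered within 6 roles. Bars are the software's error of the spots and not a spread between ovaries. The solid line is 0 and the dashed line the median of all genes at -0.10. Of the 39 points, 38 lie left of 0, against 62.3% of all genes. Levels of different genes are not comparable with each other because each is read by its own probe.

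**Figure D2:**
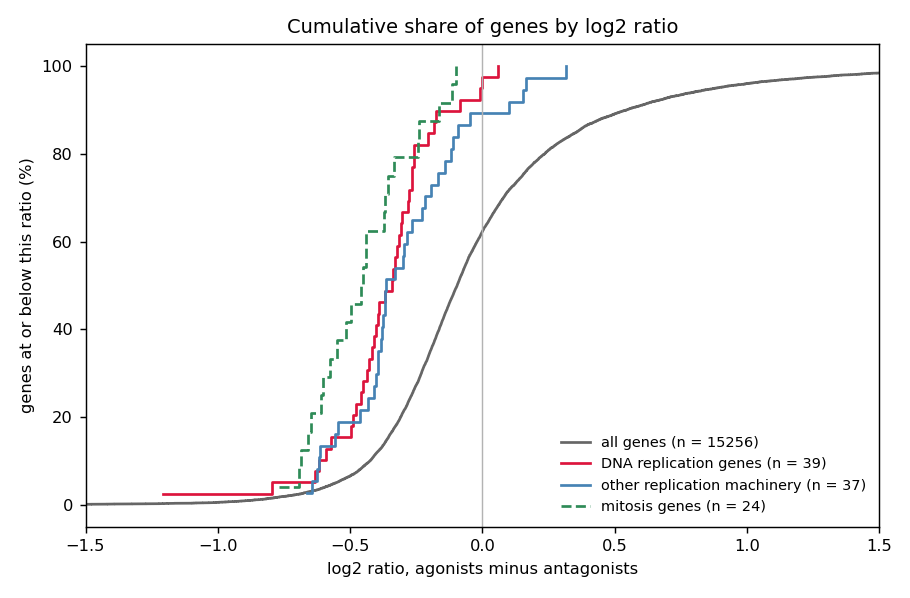
Cumulative percentage of genes at or below each log2 ratio (agonists minus antagonists) for all 15256 genes well above background on both arrays, the 39 DNA replication genes, the 37 other genes of the replication machinery and 24 mitosis genes. The curves of the 3 lists run left of that of all genes over most of their length and rise steeply, with medians of -0.34, -0.36 and -0.46 against -0.10; all genes beyond the plotted range are counted.

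The helicase and its loading factors were lower as a group, with a median log2 ratio of -0.34 over 14 genes and a range from -0.62 to -0.08. Mcm5, a subunit of the MCM2-7 ring, read 2734 signal units with the agonists against 3552 with the antagonists, giving a log2 ratio of -0.62. Mcm2, another subunit of the ring, had 2202 and 2593 signal units and a log2 ratio of -0.48. The 6 subunits of the ring lay between -0.62 and -0.31 with a median of -0.38, so that each subunit of this complex was lower with the agonists and Mcm3 (-0.39), Mcm4 (-0.37), Mcm6 (-0.33) and Mcm7 (-0.31) followed one another closely. Cdc6, the ATPase that helps to load the ring, gave -0.42 with one probe (366 and 413 signal units) and -0.52 with the other (133 and 162). Its loading partner Cdt1 gave -0.31 and Orc1, the largest subunit of the origin recognition complex, -0.34. Factors that activate the ring were closer to the median of all genes in several cases. Gins1, a GINS subunit, was the nearest to 0, reading 1616 signal units with the agonists against 1449 with the antagonists (log2 ratio -0.08), and its partner Gins2 gave -0.40. Cdc45 and Orc6 each gave -0.18, within the software's error of 0, and Mcm10, an initiation factor, -0.32.

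Sequence before the start site is shown for members of this group because its genes are textbook targets of E2F transcription factors. E2F factors activate S phase genes once the phosphorylated retinoblastoma protein releases them. For a gene with several starts, the start whose window held the most octamers was taken. The 200 bases before the start are printed from RefSeq (build GRCm38.p6), 5′ to 3′ on the gene's own strand, with capitals for the E2F octamers TTTCCCGC, TTTCGCGC, TTTGCCGC and TTTGGCGC and for CCAAT, each searched on both strands. They are chr8:75109309-75109508 (plus strand) for Mcm5, chr1:128359706-128359905 (minus) for Mcm6, chr5:138171884-138172083 (minus) for Mcm7 and chr11:98907951-98908150 (plus) for Cdc6.
Mcm5: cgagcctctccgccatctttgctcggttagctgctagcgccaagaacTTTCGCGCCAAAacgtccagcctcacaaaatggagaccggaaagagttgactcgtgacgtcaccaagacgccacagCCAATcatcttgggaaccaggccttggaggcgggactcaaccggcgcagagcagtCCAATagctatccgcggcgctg
Mcm6: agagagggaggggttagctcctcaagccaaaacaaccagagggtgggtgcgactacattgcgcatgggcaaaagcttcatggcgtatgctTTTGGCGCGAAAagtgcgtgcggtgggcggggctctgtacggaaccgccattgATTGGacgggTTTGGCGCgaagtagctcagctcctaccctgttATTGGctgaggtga
Mcm7: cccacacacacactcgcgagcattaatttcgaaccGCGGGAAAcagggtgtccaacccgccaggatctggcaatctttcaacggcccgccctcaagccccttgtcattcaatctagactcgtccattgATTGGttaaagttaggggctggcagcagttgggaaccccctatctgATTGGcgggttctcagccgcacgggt
Cdc6: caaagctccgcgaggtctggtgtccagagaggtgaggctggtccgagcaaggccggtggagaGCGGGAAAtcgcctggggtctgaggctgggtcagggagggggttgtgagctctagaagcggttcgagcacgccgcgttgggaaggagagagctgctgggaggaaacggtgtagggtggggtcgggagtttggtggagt
In Mcm5 a pair of octamers on opposite strands overlaps in 1 capital run, and in Mcm6 the same arrangement is followed by a further octamer nearer the start, beside CCAAT letters on one or the other strand. Mcm7 and Cdc6 each hold 1 octamer in the stretch shown, and Cdc6 holds no CCAAT there. The window of another start of Mcm7 held CCAAT letters and no octamer. Mcm2, Mcm10, Cdc45 and Orc6, of the same role, had windows without an octamer and are not shown. The stretches printed are thus not a fair sample of this role.

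Primase and the polymerases had a median of -0.30 over 6 genes. The lowest was Prim2, the large subunit of primase, at 511 signal units with the agonists against 643 with the antagonists (log2 ratio -0.57). Its catalytic partner Prim1 had 3596 and 3989 signal units and a log2 ratio of -0.39. The subunits that form the polymerase alpha-primase complex therefore spread widely, since Pola1, the catalytic subunit of polymerase alpha, gave -0.27 and its accessory subunit Pola2 was equal after scaling (64.0 and 54.2 signal units, log2 ratio -0.00, software error 0.26). Pold1 and Pole are the catalytic subunits of polymerases delta and epsilon and gave -0.34 and -0.26. A second, dim probe of Pole went the other way: it read 72.7 signal units with the agonists, while its 19.8 signal units on the antagonist array were not well above background there, so the agonist signal was higher by at least 3.09-fold. That bound sets the agonist signal against the lowest signal well above background on the antagonist array. The bright probe of Pole had 1476 and 1495 signal units, and the sources used here do not say which transcripts each of the probes reads.

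The clamp, its loader and the proteins that process single strands and flaps had the lowest median of the 6 roles, -0.46 over 8 genes, and the narrowest range, from -0.59 to -0.26. Pcna, the sliding clamp that holds the polymerases on DNA, read 22916 signal units with the agonists against 29212 with the antagonists (log2 ratio -0.59). Rfc3, a subunit of the clamp loader, had 468 and 558 signal units and a log2 ratio of -0.50, and its partner Rfc5 gave -0.49. The other loader subunits were Rfc2 at -0.28 and Rfc4 at -0.26 (4769 and 4846 signal units), with -0.32 from a second probe of Rfc4. Each of these ratios has a software error of 0.20, so a difference between the loader's subunits cannot be read from them. Fen1, the flap nuclease, and Lig1, the ligase of the lagging strand, gave almost equal values of -0.46 and -0.45. Rpa2, a subunit of the complex that coats single-stranded DNA, gave -0.44.

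Deoxynucleotide synthesis (4 genes, median -0.35) held both a very low value and the only positive one of the 39. Rrm2, the small subunit of ribonucleotide reductase and the subunit whose level is known to follow S phase, read 2509 signal units with the agonists against 3682 with the antagonists, which is a log2 ratio of -0.80. Among all genes only 1.54% had a lower log2 ratio. Rrm1, the large subunit, had 3058 and 3486 signal units and a log2 ratio of -0.43. Tk1, thymidine kinase, gave -0.28. Tyms, thymidylate synthase, went the other way, at 387 signal units with the agonists against 314 with the antagonists, and its log2 ratio of 0.06 is within its software error of 0.

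Genes that supply and place histones on new DNA had a median of -0.29 over 4 genes. Chaf1b, a subunit of chromatin assembly factor 1, was the lowest at -0.63 (3503 and 4596 signal units), and its second probe gave -0.61 (2093 and 2711). Its partner Chaf1a gave only -0.26. Slbp, which binds the stem-loop of replication-dependent histone mRNAs, had 991 and 1042 signal units and a log2 ratio of -0.31, with -0.40 from its second probe. Uhrf1, which directs maintenance methylation to new strands, read 9058 signal units with the agonists against 8847 with the antagonists on its bright probe (log2 ratio -0.21). A dim probe of Uhrf1, designed on another RefSeq transcript, had 88.1 and 57.1 signal units and a log2 ratio of 0.38, so the probes of this gene differ in sign. Over all 46 probes, 43 were below 0 and 3 above, the last being the probe of Tyms and the dim probes of Pole and Uhrf1. Of all genes, 62.3% were below 0.

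Regulators of entry into S phase had the widest range of the roles, from -1.21 to -0.01 over 3 genes, with a median of -0.41. Ccne1, the cyclin that activates Cdk2 at the end of G1, read 903 signal units with the agonists against 1764 with the antagonists, giving a log2 ratio of -1.21 with a software error of 0.20, or 2.31-fold higher with the antagonists. A second, dim probe had 27.8 and 51.9 signal units and a log2 ratio of -1.14. The probes of Ccne1 thus went the same way by nearly the same amount, and only 0.295% of all genes had a lower log2 ratio. Ccne2, its close relative, was dim and equal after scaling (38.3 and 32.6 signal units, log2 ratio -0.01, software error 0.30). E2f1, the E2F factor best known for activating S phase genes, had 1300 and 1462 signal units and a log2 ratio of -0.41.

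The helicase genes shown above each hold an octamer, unlike some others of their role. The 200 bases before the start of the genes at both ends of the range are given next, printed and marked in the same way. They are chr7:38107491-38107690 (minus strand) for Ccne1, chr12:24708054-24708253 (plus) for Rrm2 and chr5:30073626-30073825 (minus) for Tyms.
Ccne1: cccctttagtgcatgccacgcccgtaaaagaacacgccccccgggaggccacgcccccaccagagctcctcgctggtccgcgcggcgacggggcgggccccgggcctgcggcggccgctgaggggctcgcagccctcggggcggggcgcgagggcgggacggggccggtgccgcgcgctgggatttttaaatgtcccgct
Rrm2: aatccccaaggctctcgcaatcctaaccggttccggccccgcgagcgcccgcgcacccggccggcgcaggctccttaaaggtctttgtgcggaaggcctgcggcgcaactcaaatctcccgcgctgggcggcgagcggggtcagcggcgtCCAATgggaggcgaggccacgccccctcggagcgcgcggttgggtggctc
Tyms: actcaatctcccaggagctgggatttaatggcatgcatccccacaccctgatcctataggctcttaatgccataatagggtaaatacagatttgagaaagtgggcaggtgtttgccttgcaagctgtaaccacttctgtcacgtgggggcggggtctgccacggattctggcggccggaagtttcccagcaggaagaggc
None of the 8 forms of the E2F octamers searched occurs in these 3 stretches, and CCAAT occurs once, in Rrm2. The 2 lowest genes and the highest were thus alike in lacking the octamers. Mcm5, another gene at least 1.5-fold lower, holds 2 of them in its stretch. No match says only that these letters are not in the window.

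RefSeq promoter windows, from 250 bases before the start to 50 after it, were at hand for 32 of the 39 genes, without Rfc2, Gins1, Mcm4, Pole, Ccne2, Prim2 and Gins2. An E2F octamer was found in the windows of 12 of the 32 (37.5%), against 2.61% of 27025 genes with a window and 4.24% of the genes well above background on both arrays. It was found in 9 of 30 other genes of the replication machinery (30.0%) and in 1 of 22 mitosis genes (4.55%). CCAAT letters, on either strand, were in the windows of 19 of the 32 replication genes (59.4%), of 41.1% of all genes and of 18 of the 22 mitosis genes (81.8%). The octamer was thus more frequent among the replication genes than among genes at large, and the CCAAT letters among the mitosis genes, with no test made. Holding the octamer did not separate the replication genes by their values, with a median of -0.34 and a range from -0.62 to -0.21 over the 12 with it, and -0.40 and from -1.21 to 0.06 over the 20 with a window and without it. A match is a description of letters and not of binding.

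The rest of the replication machinery was read from 37 further genes, each well above background with agonists and with antagonists alike. Their values lay close to those of the 39, with a median of -0.36 and 33 of 37 below 0 (against 62.3% of all genes). At least 1.5-fold lower were 5 (13.5%, against 4.28% of all genes). That count was 0 without scaling, on the spike-in scale, with the percentile over detected probes, with loess and in the authors' values. The lowest were Gmnn (geminin, the inhibitor of Cdt1, -0.66), Pole2 (a subunit of polymerase epsilon, -0.64) and Rnaseh2a, the catalytic subunit of ribonuclease H2, which gave -0.63 with values from -0.47 to -0.25 on its 3 other probes. The other genes past 1.5-fold were Tipin (-0.62) and Clspn (-0.61), which act at the moving fork. The highest were Orc4 (0.32), Pold4 (0.16) and Orc5 (0.15), and a second probe of Orc4 gave -0.29.

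Around the machinery, 5 further lists held 54 genes measured on both arrays, with a median of -0.30 (-0.025 on the spike-in scale), 44 below 0, against 62.3% of all genes, and 9 at least 1.5-fold lower, against 4.28%. Among other deoxynucleotide enzymes (10 genes, median -0.28) Dck, deoxycytidine kinase, gave -0.60, and the highest were Dctd (0.11) and Shmt1 (0.06), whose second probes gave -0.64 and -0.29. Histone chaperones and maintenance methylation (9 genes, median -0.22) ran from Asf1b (-0.57) and Nasp (-0.35) to Rbbp7 (0.19) and Asf1a (0.31), so the chaperone paralogs Asf1b and Asf1a lay at opposite ends. The E2F and pocket proteins (12 genes, median -0.39) ran from E2f7 (-0.98) and E2f8 (-0.90), repressors that are themselves made in S phase, to E2f5 (-0.06) and Rbl2 (0.02), but a second probe of E2f7 gave 0.14. Among the S phase cyclin and kinase genes (4 of 5 measured, median -0.47) cyclin A2, Ccna2, gave -0.75, Cks1b -0.60, Cdk2 -0.35 and Cdc25a -0.19, and no probe was matched to Skp2. The replication checkpoint and fork repair list (19 of 20 above background, without Brca1, median -0.31) ran from Bard1 (-0.81), with -0.01 and 0.06 from its other probes, and Atrip (-0.64) to Chek1 (0.27).

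Lists outside replication show how far the difference extended. Mitosis genes were lower too, with a median of -0.46. Of the 24, 24 were below 0 (against 62.3% of all genes) and 7 at least 1.5-fold lower (29.2%, against 4.28% of all genes). Targets of p53 (13 genes) had a median of 0.05 and 6 below 0, from Gadd45a (-0.70) to Bbc3 (0.36), and Cdkn1a, the cyclin kinase inhibitor p21, gave 0.13. Housekeeping genes (10 genes) had a median of -0.17, a range from -0.33 to 0.16 and 9 below 0. The counts below 0 of these lists also stand against 62.3% of all genes. Spike-in scaling raised each list's median by 0.28 on the log2 scale, which turned those of the housekeeping list (0.10) and of the histone chaperones (0.05) positive and left that of the mitosis list at -0.18. The replication genes thus lay below the housekeeping list by their median and above the mitosis list, and the differences between these lists were not tested.

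Markers of the ovary's cell types differed between the arrays as well. Granulosa markers had a median log2 ratio of -0.47 over 10 genes. Of these, 8 were below 0 (against 62.3% of all genes) and 4 at least 1.5-fold lower (against 4.28%). They ran from Inhbb (-1.17), Fshr (-0.73), Inha (-0.68) and Amh (-0.67) to Foxl2 (0.32, with -0.37 from its second probe) and Amhr2 (0.38). Summed over the list, the scaled signal came to 175 with the agonists against 210 with the antagonists, where the 75th percentile of an array is 1, and that of the 39 replication genes was 207 and 276. Such sums are set mostly by a list's brightest probes, and levels of different probes are not comparable. Among the granulosa markers, Inha (33223 and 45079 signal units) and Amhr2 (37832 and 24620) were bright and went opposite ways. Oocyte markers had a median of 0.17 and a range from -0.13 to 0.59, and their sums were 265 and 270. Theca markers did not share 1 direction, with a median of -0.40, 3 below 0, 2 above, a range from -0.41 to 0.79 (Cyp11a1) and sums of 85.7 and 84.9. Of the 7 listed, 6 had a probe and 5 were above background. No probe was matched to Insl3, and Lhcgr was not well above background. Markers of cells outside the follicle, namely stroma, smooth muscle, endothelium, macrophages and surface epithelium, were higher with the agonists, with a median of 0.61. Of these, 20 of 22 were above 0, where 62.3% of all genes were below 0 (24.0% with spike-in scaling). At least 1.5-fold higher were 13 (against 9.26% of all genes), and the sums were 436 and 340. Not pooled were lists with 1 or 2 genes measured on both arrays: lymphocyte (median -0.06), erythroid (-0.15), oviduct (-0.43) and fat (0.59). The part of these shifts in the ratios of the replication genes was not tested.

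**Figure D3:**
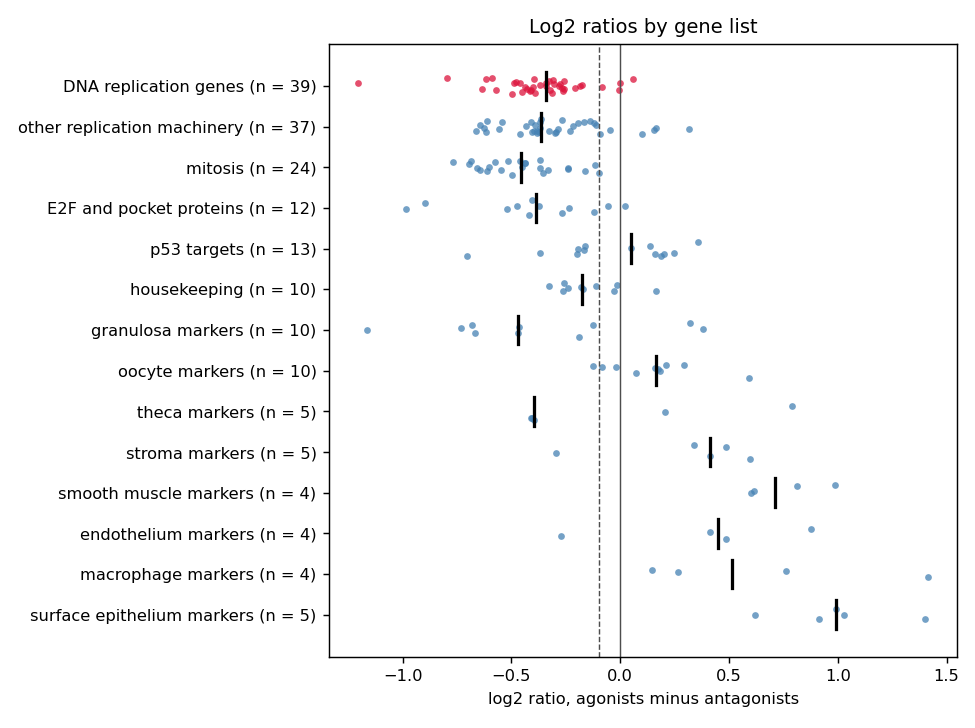
Log2 ratio (agonists minus antagonists) of each gene of 14 lists, 1 point per gene and 1 array per group, with a black bar at each list's median, a solid line at 0 and a dashed line at the median of all genes (-0.10). Of the replication genes 35 of 39, of the mitosis genes 24 of 24 and of the granulosa markers 8 of 10 lie left of the dashed line, oocyte markers around and right of 0, and most markers of cells outside the follicle right of 0.

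The size of the ratios depended on how the arrays were scaled. Their distance from the median of all genes cannot change where a scaling shifts every ratio by the same amount. The median of the 39 genes was below 0 in each of the 14 alternatives run, from -0.40 to -0.067, while that of all genes lay between -0.15 and 0.18. The difference between them lay between -0.28 and -0.19. It was fixed at the reported -0.25 without scaling, with scaling on the median and on the spike-in scale. The same holds for the percentile over detected probes and the authors' values, so only the other alternatives could move it. Left unscaled, the median of the 39 was -0.10, with 32 of 39 below 0 against 28.3% of all genes, and on the spike-in scale it was -0.067, with 28 of 39 below 0 against 24.0%. Ccne1 ran from -1.26 to -0.93 and Rrm2 from -0.85 to -0.52. Sign changes occurred in 11 genes whose ratios were small, Ccne2, Cdc45, Gins1, Orc6, Pola2, Uhrf1, Chaf1a, Pola1, Pole, Rfc4 and Tyms.

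**Figure D4:**
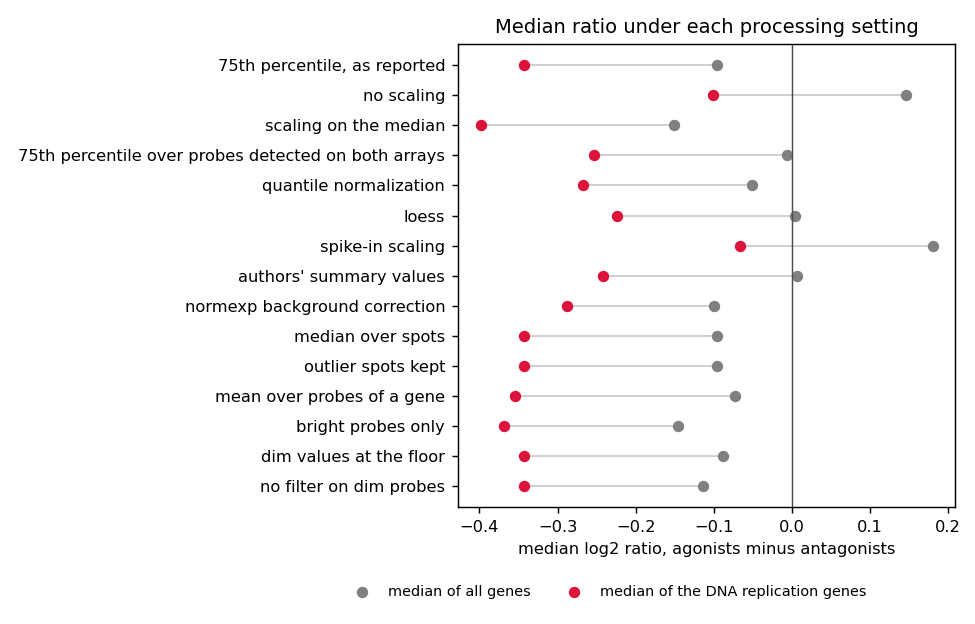
Median log2 ratio (agonists minus antagonists) of the DNA replication genes (red) and of all genes (grey) under the reported scaling and each of the 14 alternatives. The grey line joins the medians of one setting; red lies left of grey by 0.19 to 0.28 in each of them, and under no scaling or under spike-in scaling all genes shift to the right of 0.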

How the data were processed

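The array images were analysed in Agilent Feature Extraction (10.10.1.1 per the file headers), and the authors deposited the background-corrected intensity of each spot, unscaled between arrays, with marks for outliers and for signal well above background. In their summary table each array's intensities are multiplied by a constant (agonists 1.99, antagonists 2.19).

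From the deposited intensities the log2 of the processed signal was computed for spots that are not controls, reduced by the array's 75th percentile and averaged over a probe's spots without outlier spots. A probe was taken as well above background if more than 50% of its spots carried that mark. The files hold no gene name column, so probes were named through RefSeq accessions (names only, GRCm38.p6). A gene was represented by its probe with the highest mean signal among those well above background on both arrays. No test was made with 1 array per group. A gene was counted as lower or higher at 1.5-fold. The arrays' number limits the precision.

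The genes and lists were chosen with earlier results of these data known. Values are given for the 2 lowest and the highest genes of each role, for genes whose probes differ in sign or by over 0.5, for the 3 lowest and 3 highest of the other machinery and the 2 of each further list. Other genes were named after their values were seen. Some genes of the further lists that this rule would name are not reported here.

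Alternatives were other scalings, the authors' values, normexp (offset 50), other spot and probe summaries and filters, and a 2-fold threshold. The calculation was tested on simulated data. Python 3.11.15, numpy 2.4.6, pandas 2.3.3, matplotlib 3.10.9, R 4.3.3 and limma 3.58.1 were used.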

Additional observations from a re-analysis of the deposited data

How the results depend on the processing

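No paired analysis was possible because each group has 1 array. Over the alternatives run, no median of the 39 replication genes, of their 6 roles or of the 37 other machinery genes changed sign. Without scaling the medians of the 39 and of the 37 were -0.10 and -0.12, and with spike-in scaling (8 probes) -0.067 and -0.088, against -0.34 and -0.36 as reported. The count of replication genes at least 1.5-fold lower was 5 as reported, 1 without scaling and with spike-in scaling, 2 with the percentile over probes detected on both arrays, with quantile normalization, with loess and in the authors' values, 3 with normexp and 6 with scaling on the median. For the other machinery it was 5 as reported, 0 without scaling, with spike-in scaling, with the percentile over probes detected on both arrays, with loess and in the authors' values, 1 with normexp, 3 with quantile normalization and with bright probes, and 7 with scaling on the median. With a 2-fold threshold the counts were 1 and 0. So the counts past 1.5-fold depend on the scaling. Of 538 values of single genes under the alternatives, 461 moved by less than the software's error and 27 changed sign. The 461 include values that could not move. Each probe used had 1 spot and was well above background on both arrays. So neither the median over spots nor the filters on dim probes could change a gene's value. Of 84 role medians, 71 moved by less than the software's error and 13 by more. Dim probes (Ccne2, Pola2, Orc1, Cdc45 and the second probes of Ccne1, Pole and Uhrf1) limit what can be read from those genes.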
